A study of Homo sapiens with 2 samples.

Results

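The genes described here were 47 cyclins, cyclin-dependent kinases (CDKs) and direct regulators of the cell cycle. They were chosen by name from textbook knowledge of the cycle, with earlier results of these data already known. Each was matched by gene symbol to 1 row of the deposited tables, and all 47 were found among 56638 genes. They were grouped by the step at which they act, with 9 cyclins, kinases and a phosphatase of G1 phase, 13 RB proteins and E2F factors, 4 factors of S phase, 14 factors of G2 phase and mitosis (G2/M), 6 CDK inhibitors and the CDK-activating kinase CDK7.

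The study examined MBD2, a reader of methylated CpG dinucleotides, in cholangiocarcinoma, a cancer of the bile duct, and asked among other things how MBD2 bears on proliferation. RNA was sequenced from TFK1, an established human cholangiocarcinoma line, as 2 libraries. The group T-shMBD2 (shMBD2 below) carried a short hairpin RNA knocking down MBD2, and the group T-shNC (shNC below) carried a negative control hairpin. Both are labeled as receiving no treatment, and the study's methods describe lentiviral delivery of hairpins with drug selection, while the labels do not say which MBD2 hairpin was sequenced.

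Cells pass from G1 to S when cyclin D with CDK4 or CDK6, and then cyclin E with CDK2, phosphorylate the RB proteins and release E2F factors, which switch on genes for DNA replication. Entry into mitosis is driven by cyclin A and cyclin B with CDK1, which WEE1 and PKMYT1 hold back and the CDC25 phosphatases release. The CIP/KIP proteins (CDKN1A, CDKN1B, CDKN1C) bind cyclin-CDK complexes of several phases, and the INK4 proteins (CDKN2A to CDKN2D) bind CDK4 and CDK6.

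Reads counted on genes summed to 14728814 in shMBD2 and 14467406 in shNC. The knockdown target was the first gene examined. MBD2 had 365 counts in shMBD2 and 1013 in shNC, or 15.6 and 44.6 TPM (the share of a gene among all transcripts, a level corrected for gene length). Differences are given as log2FC, the log2 ratio of shMBD2 over shNC after scaling by effective library size and adding 0.5 counts, with a 95% Clopper-Pearson interval of the split of the gene's reads. For MBD2 it was -1.48 (interval -1.66 to -1.31). Each condition had 1 library, so no difference below has a replicate check, no p-value is given, and the intervals cover counting error only. Of the 8 epithelial and biliary markers, which summed to 4818 TPM in shMBD2 and 6016 TPM in shNC, the keratin genes KRT7, KRT8 and KRT18 were abundant in both libraries, at 525.8 TPM or more. The others were lower, with CDH1 at 83.8 and 64.7 TPM, KRT19 at 15.0 and 9.04 TPM, EPCAM at 11.3 and 16.9 TPM, SOX9 at 11.7 and 19.8 TPM and CLDN4 at 4.33 and 2.24 TPM. The 10 leukocyte markers summed to 20.2 and 14.3 TPM. Of these, the pan-leukocyte gene PTPRC had 0 and 1 counts and CD3E, MS4A1, LYZ and CD52 had 0 in both libraries, while CD14 had 152 and 126 counts, LAPTM5 29 and 3, and CORO1A 56 and 19. The 8 fibroblast markers summed to 104.4 and 62.8 TPM. The type I collagen gene COL1A1 had 308 and 124 counts and its partner COL1A2 had 0 and 1, FBLN1 had 1244 and 958, and SPARC had 468 and 10. The 6 endothelial markers summed to 1.27 and 2.19 TPM and the 6 hepatocyte markers to 13.8 and 24.7 TPM, with albumin at 3 and 0 counts. The part of these genes in the values below was not tested.

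Some promoters of these genes carry short elements for which cell cycle genes are known, and 7 promoters are shown. They hold elements found more often in some groups than in others, or the CpG dinucleotides that MBD2 reads when methylated. No element was limited to 1 group or present in all its promoters. Windows of 300 bases around the start site were available in RefSeq (GRCh38.p14) for 35 of the 47 members. An E2F element was searched as TTTCCCGC, TTTCGCGC, TTTGCCGC or TTTGGCGC on both strands. It was found in 3 of 4 S phase factors, 5 of 10 RB proteins and E2F factors, 1 of 5 G1 genes, 1 of 11 G2/M factors and 0 of 4 CDK inhibitors, against 3.3% of all 34943 promoters. In the stretches of 120 bases before the start site printed next, capitals mark this element, which in PCNA stands on the opposite strand.
CDC25A (chr3:48188418-48188537, minus strand): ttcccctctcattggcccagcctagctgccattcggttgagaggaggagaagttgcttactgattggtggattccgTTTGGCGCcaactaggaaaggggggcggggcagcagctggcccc
PCNA (chr20:5126623-5126742, minus strand): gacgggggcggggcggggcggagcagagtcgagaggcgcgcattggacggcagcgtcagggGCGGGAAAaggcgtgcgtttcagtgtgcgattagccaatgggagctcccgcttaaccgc

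The cell cycle genes homology region (CHR), searched as TTTGAA on both strands, is the element through which the MuvB complex controls genes of G2 and mitosis. It was found in 6 of 11 G2/M factors (CCNB2, CCNF, CDK1, CDC20, CDKN3 and MKI67) and in 2 of 10 RB proteins and E2F factors, and in none of the 5 G1 genes, 4 S phase factors and 4 inhibitors, against 15.2% of all promoters. The CCAAT box, which the NF-Y factor binds and which can lie beside the CHR, was in 9 of 11 G2/M factors and in 34.6% of all promoters. Capitals in the following 3 stretches mark the CHR, which occurs 2 times in this window of MKI67.
CCNB2 (chr15:59105026-59105145, plus strand): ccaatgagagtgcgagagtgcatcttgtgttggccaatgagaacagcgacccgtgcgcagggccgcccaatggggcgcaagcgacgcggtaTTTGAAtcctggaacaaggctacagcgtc
CDC20 (chr1:43358861-43358980, plus strand): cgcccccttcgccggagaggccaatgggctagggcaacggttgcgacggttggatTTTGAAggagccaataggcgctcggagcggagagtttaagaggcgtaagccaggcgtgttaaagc
MKI67 (chr10:128126424-128126543, minus strand): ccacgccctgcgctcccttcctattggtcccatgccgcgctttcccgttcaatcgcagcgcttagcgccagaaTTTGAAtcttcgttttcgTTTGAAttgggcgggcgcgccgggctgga

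The 35 promoters held a median of 28 CpG dinucleotides per 300 bases, against 14 over all promoters, and ranged from 8 in CDKN2C to 52 in TFDP1. DNA methylation was not measured in these libraries, so whether any of these CpGs is methylated in TFK1 cells is not known here. CCNE1 and CDKN2D, which differed in opposite directions between the libraries (below), had 47 and 36. Capitals in their stretches mark each CpG.
CCNE1 (chr19:29811871-29811990, plus strand): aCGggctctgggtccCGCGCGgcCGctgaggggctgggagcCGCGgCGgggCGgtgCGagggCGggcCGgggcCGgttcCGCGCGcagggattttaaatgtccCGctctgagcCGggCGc
CDKN2D (chr19:10568980-10569099, minus strand): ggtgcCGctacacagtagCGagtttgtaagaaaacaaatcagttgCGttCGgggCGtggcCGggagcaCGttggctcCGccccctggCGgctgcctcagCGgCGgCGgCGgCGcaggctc

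Most of the cell cycle genes were expressed at between 10 and 100 TPM, and most lay close together in the libraries. In shNC, 12 of the 47 were above 100 TPM, 29 lay between 10 and 100 TPM, 4 were below 10 TPM and 2 (CCND2 and CDKN2B) were at 0. In shMBD2 these numbers were 13, 27, 5 and 2. The replication clamp PCNA was highest in both, at 877.3 TPM in shMBD2 and 868 TPM in shNC, and CCNB1 was next at 294 and 294 TPM. In the order of levels, CDKN1A moved from position 16 in shNC to position 10 in shMBD2, and CDC25C made the longest move, from position 28 to 35. The sum over the group was 657 and 598 TPM for G1 genes, 442 and 453 TPM for RB proteins and E2F factors, 1077 and 1059 TPM for S phase factors, and 1826 and 1836 TPM for G2/M factors. For the CDK inhibitors the sum was 238 TPM in shMBD2 and 178 TPM in shNC.

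**Figure D1:**
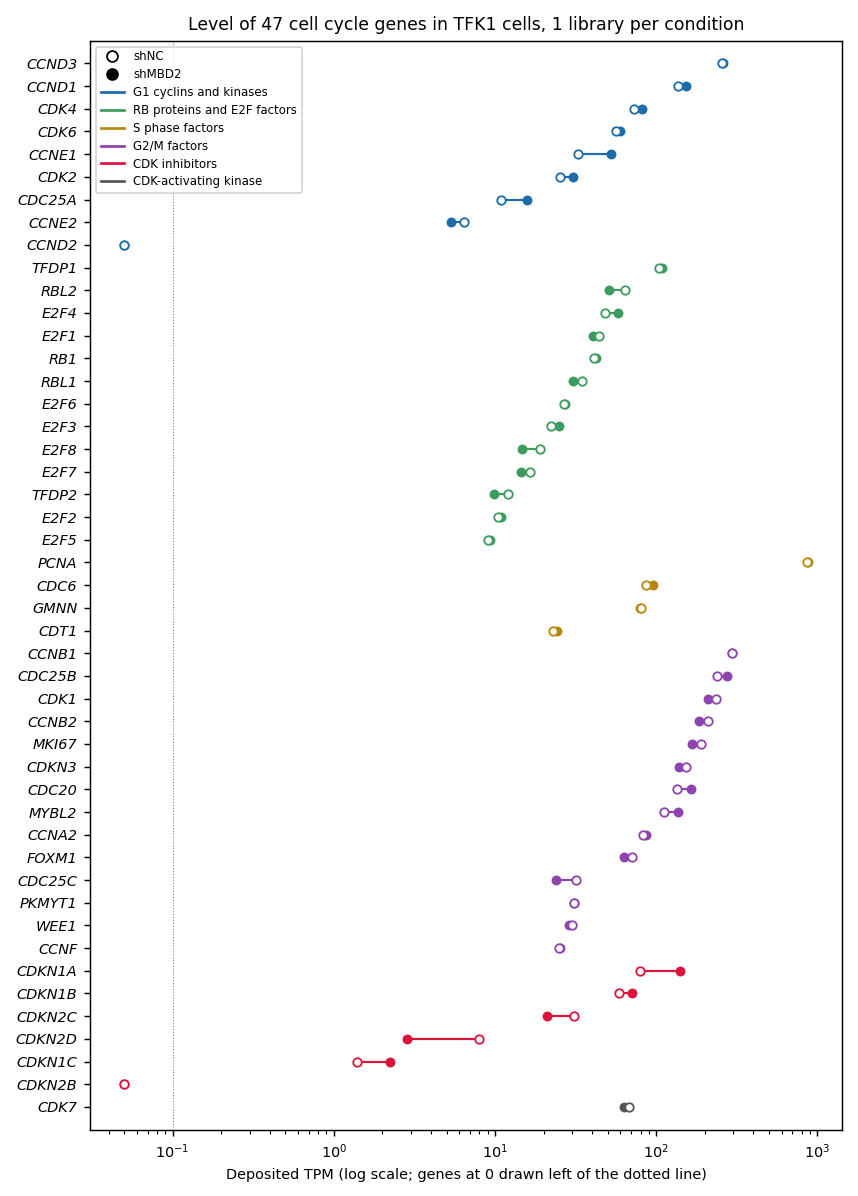
Level of each of the 47 genes in deposited TPM (log axis) in shNC (open circles) and shMBD2 (filled circles), colored by group and ordered by level in shNC, with 1 library per condition. Most pairs of circles nearly coincide, and the long lines belong to CCNE1, CDC25A and the CDK inhibitors CDKN1A, CDKN2C, CDKN2D and CDKN1C.

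Among the 45 members whose counts in the libraries added up to 10 or more, 28 had a log2FC above 0 and 17 below 0, and the median was 0.04. Over the 17545 genes with as many counts the median was -0.01. A log2FC above 0.5 was reached by 4 members (CDKN1A, CCNE1, CDKN1C and CDC25A), beside 12.8% of all genes, and a log2FC below -0.5 by 2 members (CDKN2D and CDKN2C), beside 13.2% of all genes. None of the 45 lay above 1, beside 5.48% of all genes, and CDKN2D alone lay below -1, beside 5.07%. Within 0.25 of 0 were 30 of the 45 members (66.7%) and 52.1% of all genes. The members have more reads than the typical gene, and among genes with at least 1000 counts 78.1% of the 32 members and 74.5% of all 5864 genes lay within 0.25. Of the 6 members past 0.5 or -0.5, 4 were CDK inhibitors, and the other two, CCNE1 and CDC25A, act at the G1/S transition. The member nearest to these lines from inside was CDC25C at -0.37, and the nearest from outside was CDKN2C at -0.51.

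**Figure D2:**
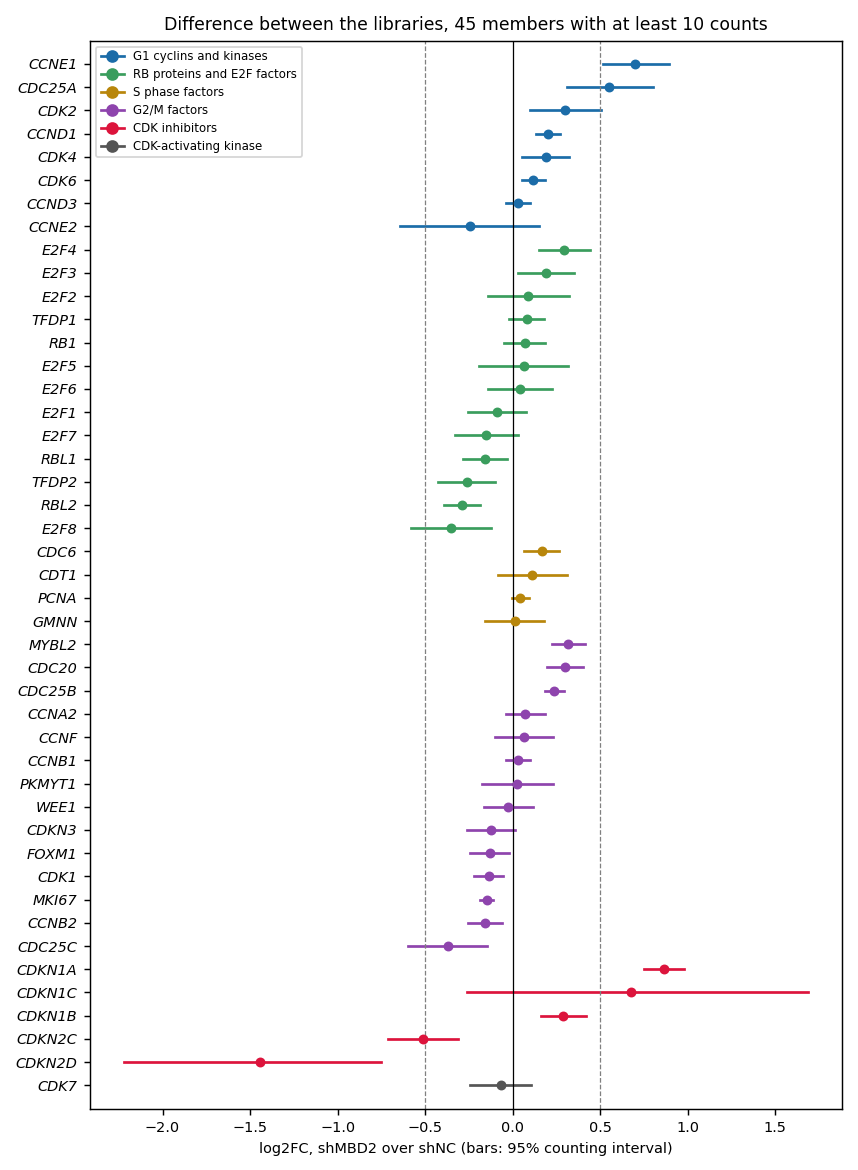
Difference between the libraries (log2FC, shMBD2 over shNC) for the 45 members with at least 10 counts, by group, with bars for the 95% counting interval and dashed lines at -0.5 and 0.5. The values (points) of the RB, E2F, S phase and G2/M groups all lie between the dashed lines, and the CDK inhibitors lie on both sides, from -1.44 for CDKN2D to 0.86 for CDKN1A.

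The G1 genes had the second highest median log2FC of the groups, at 0.20, and 7 of the 8 measured genes were above 0. CCNE1 (ENSG00000105173), the cyclin E gene that partners CDK2 at entry into S phase, had 612 counts in shMBD2 and 374 in shNC, or 52.4 and 32.8 TPM. It was 1.63-fold higher in shMBD2, with a log2FC of 0.70 (interval 0.51 to 0.89). Its paralog CCNE2 had 101 and 119 counts, or 5.30 and 6.41 TPM, and its log2FC was -0.24, with a wide interval spanning 0 (-0.64 to 0.15). CCNE1 thus made up 90.8% of the TPM of the pair in shMBD2 and 83.7% in shNC. By the deposited gene positions, the span of CCNE2 overlaps INTS8 (1300 and 1249 counts) and NDUFAF6 (269 and 224 counts) on the opposite strand. The strand setting of the counting is not given, and whether reads of CCNE2 came from these genes was not tested. CDK2, the common kinase of CCNE1 and CCNE2, had 454 and 366 counts (30.6 and 25.3 TPM) and a log2FC of 0.30 (interval 0.10 to 0.50). It overlaps PMEL on the opposite strand, which had fewer reads, 16 and 48.

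CDC25A (ENSG00000164045), the phosphatase that activates CDK2 at the G1/S transition, was the other G1 gene past 0.5. It had 341 counts in shMBD2 and 231 in shNC, or 15.8 and 11.0 TPM, a 1.47-fold difference with a log2FC of 0.55 (interval 0.31 to 0.80). Its interval reaches below 0.5, so the read numbers alone do not place it past that line.

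Of the D cyclins, which receive growth factor signals early in G1, CCND3 was the most abundant, at 258 TPM in each library, with 3536 counts in shMBD2 and 3437 in shNC and a log2FC of 0.03 (interval -0.04 to 0.10). CCND1 had 3771 and 3256 counts, or 153 and 136 TPM, and a log2FC of 0.20 (interval 0.13 to 0.27). CCND2 had 0 counts in both libraries, which at these depths allows up to 0.205 and 0.206 CPM (3 counts, as a rate per library). The D cyclins were therefore represented by CCND3 and CCND1 alone, with CCND3 at 62.8% of their TPM in shMBD2 and 65.5% in shNC. Their kinase CDK4 had 970 and 846 counts, or 81.7 and 73.1 TPM, and a log2FC of 0.19 (interval 0.05 to 0.32). The related kinase CDK6 had 3981 and 3646 counts, or 60.0 and 56.3 TPM, and a log2FC of 0.12 (interval 0.05 to 0.18). CDK6 had more reads than CDK4 but a lower level per length in both libraries.

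None of the 13 RB proteins and E2F factors lay past 0.5 or -0.5. Of all genes with at least 100 counts, 87.7% also lay within these lines. The group's median log2FC was 0.04, with 7 above and 6 below 0. RB1, the retinoblastoma protein, had 1177 counts in shMBD2 and 1116 in shNC (42.5 and 41.4 TPM) and a log2FC of 0.07 (interval -0.05 to 0.19). RBL2, which encodes the p130 protein that holds E2F targets off in resting cells as part of the DREAM complex, had 1435 and 1743 counts (51.2 and 63.7 TPM). Its log2FC of -0.29 (interval -0.39 to -0.19) was the lowest of the 3 RB proteins, and RBL1 (p107) was at -0.16. Intervals of RBL1 and RBL2 lay below 0 and that of RB1 spanned it.

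The activator factors E2F1, E2F2 and E2F3 together had 76.4 TPM in shMBD2 and 76.8 TPM in shNC. E2F1, the most abundant of them, had 40.7 and 44.2 TPM and a log2FC of -0.09 (interval -0.26 to 0.08), and E2F2 and E2F3 were at 0.09 and 0.19. Of the factors that act as repressors, E2F4 was highest of the group at 0.30 (interval 0.15 to 0.44), with 868 and 703 counts. E2F5 and E2F6 were at 0.06 and 0.04, and the atypical repressors E2F7 and E2F8, which bind DNA without a DP partner, at -0.15 and -0.35. E2F8 was the lowest of the group, with 287 and 364 counts and an interval from -0.58 to -0.12. The DP partners lay apart, with TFDP1 at 109 and 105 TPM and a log2FC of 0.08, and the less abundant TFDP2 at 9.86 and 12.1 TPM and a log2FC of -0.26.

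The S phase factors differed little, with 4 of 4 within 0.25 and a median log2FC of 0.08. Of all genes with at least 100 counts, 64.2% lay within 0.25. PCNA had 6817 counts in shMBD2 and 6577 in shNC and a log2FC of 0.04 (interval -0.01 to 0.09). CDC6 and CDT1, which load the replicative helicase onto origins, had 95.5 and 86.8 TPM and 24.3 and 22.9 TPM, with a log2FC of 0.17 (interval 0.06 to 0.27) and 0.11 (interval -0.08 to 0.31). GMNN, the geminin gene whose product blocks CDT1 after origins have fired, had 79.8 and 80.8 TPM and a log2FC of 0.01 (interval -0.16 to 0.18), and its sign is not kept when total counts or TPM are used for scaling. The ratio of CDT1 to GMNN in TPM was 0.304 in shMBD2 and 0.284 in shNC, and the log2FC intervals of both genes span 0. In bulk RNA, a smaller share of cells in a phase and less RNA per cell cannot be told apart.

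The G2/M factors lay on both sides of 0, with 7 of 14 above and 7 below and a median log2FC of 0.00. None lay past 0.5 or -0.5, and 87.7% of all genes with at least 100 counts also lay within these lines. The mitotic cyclin CCNB1 had 3651 counts in shMBD2 and 3554 in shNC and a log2FC of 0.03 (interval -0.04 to 0.10). CCNB2 had 1641 and 1821 counts, or 184 and 210.0 TPM, and a log2FC of -0.16 (interval -0.26 to -0.06). CCNA2, the cyclin of S and G2 phase, had 1373 and 1297 counts, or 85.9 and 83.2 TPM, and a log2FC of 0.07 (interval -0.04 to 0.18). The mitotic kinase CDK1 was slightly lower in shMBD2, with 2320 and 2536 counts, 208 and 234 TPM, and a log2FC of -0.14 (interval -0.22 to -0.06). CCNF, a cyclin-like substrate receptor of the SCF ubiquitin ligase, was at 0.06.

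MKI67, which encodes the proliferation antigen Ki-67 that is used to stain cycling cells, had the most reads of all members. Its 12108 counts in shMBD2 and 13336 in shNC corresponded to 167 and 189 TPM. The log2FC was -0.15 (interval -0.18 to -0.11), so that the level in shMBD2 was 90.2% of that in shNC. This interval is the narrowest of the members and lies below 0, but it covers only the sampling of reads from each library.

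The regulators of CDK1 did not share a direction. The phosphatase CDC25B, by far the most abundant of the CDC25 genes at 276 and 238 TPM, had 5670 and 4777 counts and a log2FC of 0.24 (interval 0.18 to 0.29). CDC25C had 292 and 375 counts, or 24.0 and 31.6 TPM, and a log2FC of -0.37 (interval -0.60 to -0.15), the lowest of the G2/M group. It overlaps FAM53C on the opposite strand, which had 611 and 569 counts. The inhibitory kinases WEE1 and PKMYT1 were at -0.02 and 0.03, with intervals spanning 0, and PKMYT1 changes sign with log2 of TPM plus 0.1 or 1. CDKN3, a phosphatase of CDKs, was at -0.12 (interval -0.26 to 0.01), and the CDK-activating kinase CDK7 had 526 and 548 counts and a log2FC of -0.07 (interval -0.24 to 0.11).

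The transcription factors of the late cycle went different ways as well. MYBL2 (B-Myb), which joins the MuvB complex in S phase, had 2048 and 1634 counts, or 136 and 111 TPM, and the highest log2FC of the group, 0.32 (interval 0.22 to 0.41). FOXM1, which joins the same complex later in G2, had 1258 and 1369 counts and a log2FC of -0.13 (interval -0.24 to -0.02), and it overlaps RHNO1 on the opposite strand with 744 and 701 counts. CDC20, the activator of the anaphase-promoting complex, had 1661 and 1342 counts, or 163 and 136 TPM, and a log2FC of 0.30 (interval 0.19 to 0.40). Members with a CHR lay on both sides of 0. CDC20, E2F3 and CCNF had a log2FC above 0, and RBL2, CCNB2, MKI67, CDK1 and CDKN3 below 0. The intervals of CCNF and CDKN3 span 0.

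The CDK inhibitors were the group in which the libraries differed most. Of the 5 measured, 2 were above 0.5 and 2 below -0.5, beside 12.8% and 13.2% of all genes. None lay within 0.25, beside 52.1% of all genes. Among those past the lines, CDKN1C and CDKN2D had few reads and fell under a minimum of 100 counts. CDKN1A (ENSG00000124762), which encodes p21, an inhibitor of cyclin-CDK complexes, had 1821 counts in shMBD2 and 994 in shNC, or 141 and 78.9 TPM. It was 1.82-fold higher in shMBD2, with a log2FC of 0.86 (interval 0.75 to 0.98), the highest of all members, and ranked 1195 from the highest among the 17545 genes. CDKN1B (p27), the inhibitor that accumulates in resting cells, had 1074 and 873 counts, or 70.7 and 59.0 TPM, and a log2FC of 0.29 (interval 0.16 to 0.42). CDKN1C (p57) was low, with 26 and 16 counts (2.22 and 1.40 TPM), and a log2FC of 0.67 whose interval spans 0 (-0.26 to 1.69). The CIP/KIP genes together had 214 TPM in shMBD2 and 139 TPM in shNC, with CDKN1A at 65.9% and 56.6% of this.

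The INK4 genes lay in the opposite direction. CDKN2C (ENSG00000123080, p18) had 351 counts in shMBD2 and 497 in shNC, or 21.1 and 30.7 TPM, and a log2FC of -0.51 (interval -0.71 to -0.31). This interval reaches above -0.5, so the read numbers alone do not place CDKN2C past that line. CDKN2D (ENSG00000129355, p19) had 23 and 63 counts, or 2.83 and 7.95 TPM. It was 2.76-fold higher in shNC, with a log2FC of -1.44 and a wide interval from -2.22 to -0.75 because of its few reads. CDKN2B (p15) had 0 counts in both libraries. The INK4 genes summed to 24.0 TPM in shMBD2 and 38.7 TPM in shNC, and CDKN2C made up 88.2% and 79.4% of this. By level per length the CIP/KIP genes exceeded the INK4 genes in both libraries. By the deposited gene positions, no gene with reads overlapped CCNE1, CDKN1A, CDKN2C or CDKN2D. By the same positions, CCND1, CDK4, RBL2, E2F5, CCNA2 and PKMYT1 each overlap a gene of the opposite strand with more than 100 counts in both libraries.

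**Figure D3:**
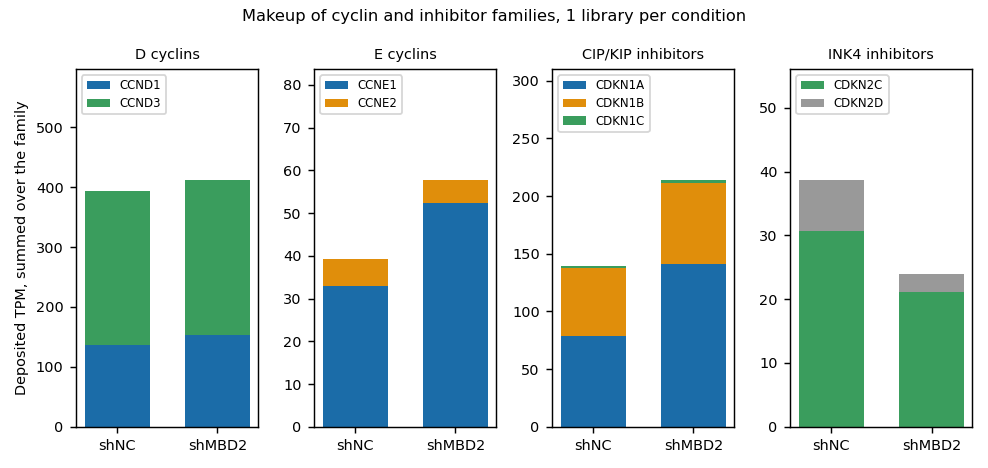
Deposited TPM of the genes of 4 families, stacked, in shNC and shMBD2 (linear axes from 0, each panel on its own scale, 1 library per condition, no error bars). The D cyclin bars are of nearly equal height, the E cyclin and CIP/KIP bars are taller in shMBD2 through CCNE1 and CDKN1A, and the INK4 bar is shorter.

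The zero of CDKN2B was shared by its neighbors on the short arm of chromosome 9. CDKN2A, the INK4 gene that also encodes ARF, and the antisense RNA CDKN2B-AS1 had 0 counts in both libraries, and the adjacent gene MTAP, which codes for a housekeeping enzyme of methionine salvage, had 2 and 2. Beyond them, DMRTA1 had 18 and 34 counts. Reads of INK4 genes came from CDKN2C and CDKN2D alone in both conditions. Genomic DNA was not measured, and a reason for the missing reads was not tested.

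**Figure D4:**
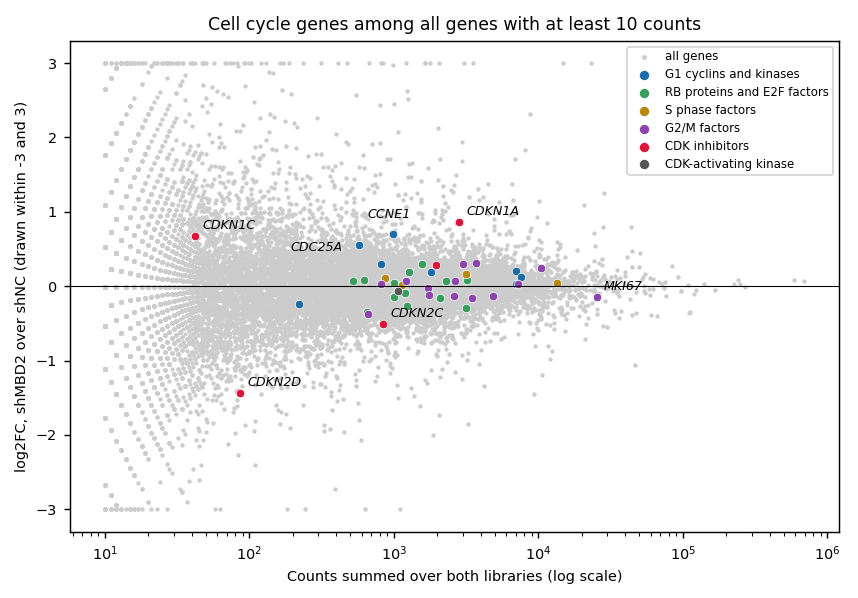
Counts summed over both libraries (log axis) against log2FC of shMBD2 over shNC for the 17545 genes with at least 10 counts (gray) and the 45 measured members (colored by group), with values beyond -3 and 3 drawn at those limits. The spread of all genes narrows as counts increase, CDKN1A and CCNE1 lie at the upper side of genes with as many reads, and CDKN2D and CDKN1C lie among genes with few reads.

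The counts behind a member bear on these differences. With at least 100 counts, 43 members and 11972 genes remained, and 3 members (CDKN1A, CCNE1 and CDC25A) were above 0.5 beside 6.37% of all genes, and 1 member (CDKN2C) was below -0.5 beside 5.95%. CDKN2D and CDKN1C fell under that minimum.

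Other parts of the machinery, listed by function outside the 47 genes, showed small differences like those of the S phase and G2/M groups. Small differences were also common among all genes. With at least 100 counts, 87.7% of all genes lay within 0.5 of 0 and 64.2% within 0.25. With at least 1000 counts, these shares were 93.4% and 74.5%. Of 33 genes of replication licensing and the replisome, such as the MCM helicase, 16 were above and 17 below 0, the median log2FC was -0.02 and 0 lay past 0.5 or -0.5. The 6 genes of nucleotide synthesis had a median of 0.03, the 24 genes of the APC/C and SCF ubiquitin ligases, which degrade cyclins and inhibitors, a median of 0.02, and the 6 MuvB and MYB genes a median of -0.05, again with 0 past these lines. The 14 genes of the DNA damage checkpoint had a median of -0.08 and all 14 lay within 0.25. The 36 genes of mitosis and the spindle checkpoint had the lowest median of these lists, -0.12, with 24 below and 12 above 0 and 0 past the lines. The lowest of them were SPC24 at -0.46, CENPA at -0.45 and NUF2 at -0.42, followed by SPC25 and ASPM at -0.39 each, all named after their values were seen.

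**Figure D5:**
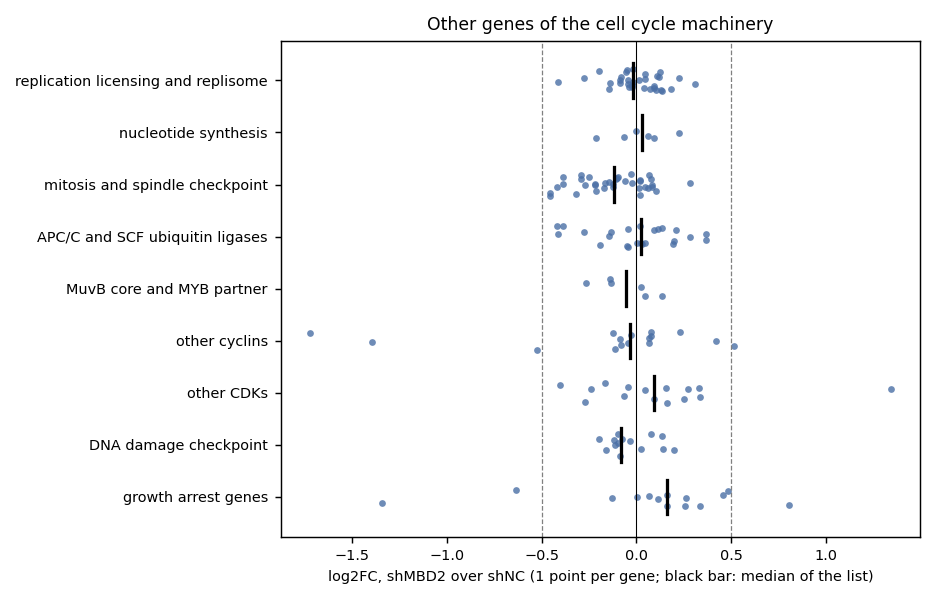
Log2FC of shMBD2 over shNC for genes of 9 other lists of the cell cycle machinery (1 point per gene with at least 10 counts, black bars for list medians, dashed lines at -0.5 and 0.5). Replication, nucleotide synthesis, mitosis, ubiquitin ligase, MuvB and DNA damage genes all lie between the dashed lines, and the points outside belong to other cyclins, other CDKs and growth arrest genes.

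Among the remaining lists, 16 other cyclins had a median of -0.04. Beside 12.8% and 13.2% of all genes, 1 of these cyclins was above 0.5 and 3 were below -0.5. Of these, CCNG2, an atypical cyclin linked to growth arrest, had 193 counts in shMBD2 and 276 in shNC and a log2FC of -0.52 (interval -0.80 to -0.25), and the others past the lines had fewer than 100 counts in each library. The 15 other CDKs had a median of 0.10, and the 1 past the lines, CDK11A, had 11 and 4 counts. The 14 genes of the growth arrest list had a median of 0.16. Of them, 1 was above 0.5 and 2 below -0.5, again beside 12.8% and 13.2% of all genes. PLK2, a polo-like kinase induced by stress, had 3170 and 1801 counts, or 187 and 109 TPM, and a log2FC of 0.81 (interval 0.72 to 0.89), close to that of CDKN1A. GADD45B, a stress gene, had 155 and 392 counts and a log2FC of -1.34 (interval -1.63 to -1.08), and the antiproliferative gene BTG1 had 849 and 1312 counts and a log2FC of -0.64 (interval -0.76 to -0.51).

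Further genes of the growth arrest list, named after their values were seen, had smaller differences than CDKN1A. MDM2, a ubiquitin ligase, was at 0.12 (interval 0.02 to 0.22), RRM2B at 0.07, SESN1 at 0.26 and GADD45A at 0.26, and the intervals of RRM2B, SESN1 and GADD45A span 0. BTG2 was at 0.46 (interval 0.21 to 0.71) and PLK3 at 0.49 (interval 0.12 to 0.86). The rest with at least 10 counts were BTG3 at 0.34, SFN at 0.16, SESN2 at 0.16, TOB2 at 0.01 and TOB1 at -0.13.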

How the data were processed

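RNA of TFK1 cells was sequenced as 1 library per condition (shMBD2, shNC). The authors deposited a table of counts (reads per gene, not normalized) and a table of TPM. The submitters' processing notes name fastp, HISAT2 2.1.0, featureCounts, DESeq 1.18.1 and GRCh38.p13. Annotation and strand setting are not given in the sources used here. Overlaps between genes were taken from the deposited gene positions, although only 5 of 47 members overlapped their GENCODE 29 position there. Promoter windows were not placed by these positions.

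Each table had 63677 rows with an identifier, which left 56638 genes with 1 row per symbol and value. TMM sizes were computed with edgeR 4.0.16 (R 4.3.3), and log2FC used a prior of 0.5 counts, for genes with at least 10 summed counts. Intervals are 95% Clopper-Pearson (scipy 1.17.1), and 3 counts were the floor. With 1 library per group no test was made. Scripts were tested on simulated data. Groups came from the genotype label. Members and lists were chosen with earlier results of these data known. The genes named are members past 0.5 or -0.5, MKI67, the CDK inhibitors, the D, E, A and B cyclins with their kinases, MBD2, and genes of other lists past 0.5 or -0.5 with at least 100 counts in the higher library, unless said otherwise. Other members are summarized by role with their values. RefSeq promoters (250 bases before to 50 after the start) were taken nearest to the principal GENCODE 29 start, a rule set after seeing the data, and 10 members had none and those of CDKN1A and RB1 lay over 1000 bases away. Alternatives were DESeq2 1.42.0 size factors, total counts, upper-quartile factors, log2 of TPM plus 0.1 or 1, priors of 2 and 0.1, no minimum or 100 counts, CPM for levels, and windows of 200 bases.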

Additional observations from a re-analysis of the deposited data

How the results depend on the processing

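No paired analysis was possible because shMBD2 and shNC were sequenced as 1 library each, and leaving out a library leaves no comparison. Over 7 alternatives for scaling, TPM and prior counts, none of 315 values of single members moved beyond its counting interval. DESeq2 size factors, total counts and upper-quartile factors shifted every log2FC by only 0.009, -0.017 and -0.009, so these settings could not move a value far. All alternatives use the same libraries and say nothing about the spread between cultures. The sign changed in 2 members near 0 (GMNN and PKMYT1, within 0.04 of 0) and in none past 0.5 or -0.5. MBD2 lay between -1.50 and -1.45, CDKN1A between 0.83 and 0.87, CCNE1 between 0.66 and 0.71, CDKN2C between -0.54 and -0.50 and CDKN2D between -1.46 and -1.22.

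With log2 of TPM plus 1, which shrinks low genes, 2 members were above 0.5, since CDC25A was at 0.49 and CDKN1C at 0.42, and 8.03%, 2.13% and 1.94% of all genes were above 0.5, above 1 and below -1. With at least 100 counts, 1 member was below -0.5 and 0 below -1, and the shares of all genes were 6.37% above 0.5, 5.95% below -0.5, 1.78% above 1 and 1.06% below -1. With no minimum they were 23.3%, 23%, 16.6% and 15.8%, and the list around CDKN2B gave no value at 100 counts. In CPM, which ignore gene length, shares within families moved in shMBD2 and shNC to 48.4% and 51.4% for CCND3, 85.8% and 75.9% for CCNE1, 62.3% and 52.8% for CDKN1A, 93.8% and 88.7% for CDKN2C (of CDKN2A to CDKN2D), 90.0% and 88.7% for CDC25B and 19.6% and 18.8% for CDK4 (of CDK4 and CDK6). In windows of 200 bases, 2.32% of all promoters held the E2F element, 9.45% the CHR and 26.5% the CCAAT box.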
